A study of Mus musculus with 8 samples.

Results

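The RNA of 8 genes that hold cells in, or release them from, the G1 phase of the cell cycle was followed in mouse spleen neutrophils with and without the chemokine receptor Cxcr2. They were taken by name from 4 families, a choice made with earlier results of these data known, and make up 8 of the 55414 genes listed in the count files and 8 of the 16778 genes whose counts were high enough to test. Cdkn1a (p21) and Cdkn1b (p27) are Cip/Kip inhibitors, which bind cyclin-CDK complexes broadly. Cdkn2c (p18) and Cdkn2d (p19) are Ink4 inhibitors, which bind the kinases Cdk4 and Cdk6 and keep them from the D cyclins. Cdk4 and Cdk6 themselves and the G-type cyclins Ccng1 and Ccng2, which are made under stress or as cells leave the cycle, complete the group.

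A dividing cell passes G1 when D cyclins and Cdk4 or Cdk6, then cyclin E and Cdk2, phosphorylate the pocket proteins Rb1, Rbl1 and Rbl2 and so free E2F transcription factors to switch on the genes of DNA replication and mitosis. Neutrophil precursors divide until about the myelocyte stage and then stop for good, and CDK inhibitors, Cdkn1b among them, accumulate as the later, non-dividing stages form. The cells of a neutrophil sort can therefore span dividing precursors and cells that have left the cycle.

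The libraries came from neutrophils of the spleen, purified by flow cytometry as CD45+ CD11b+ Ly6G+ F4/80- cells after enrichment on CD11b, from mice aged 10 weeks. The WT group held 4 libraries from FVB mice with both copies of Cxcr2, and the Cxcr2-/- group held 4 libraries from mice that lack the receptor in every cell, with the mutation crossed into the FVB strain. Both groups were housed under the same specific and opportunistic pathogen free conditions, and the labels name no treatment for either. The comparison addresses what the loss of Cxcr2 does to the RNA of spleen neutrophils. Each p-value sets the difference between the groups against the spread between the libraries of a group, 4 in each. With 4 animals and 4 libraries in each group a library stands for 1 animal, which the labels themselves do not state. The Ly6G gate takes both Ly6G-low and Ly6G-high cells, so the stages of maturation are mixed in each library. The paper's flow cytometry found a larger share of Ly6G-low cells and a smaller share of CD101+ mature cells among Cxcr2-/- than WT spleen neutrophils. What this shift contributes to the RNA results was not tested.

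Counts on genes ran from 34220182 to 46233555 per library. Cxcr2 itself stood at 1719 to 2252 CPM (counts scaled to a common library total with edgeR's TMM factors) in the WT libraries and at 12.9 to 20.7 CPM in the Cxcr2-/- libraries, as the labels say. The 10 neutrophil markers, Ly6g, S100a8, S100a9, Itgam and Csf3r among them, summed to 32324 to 46339 CPM in WT and 67275 to 81089 CPM in Cxcr2-/- libraries. All 12 precursor markers were higher in Cxcr2-/- neutrophils, with a median log2 fold change of 1.61 and sums of 19532 to 23629 CPM in WT against 44844 to 63961 CPM in Cxcr2-/- libraries. Among these precursor markers, the primary granule genes Elane, Prtn3, Mpo and Ctsg summed to 2.4 to 12.5 CPM in WT libraries, to 53.4 and 54.7 CPM in Cxcr2-/- replicates 1 and 2, and to 208 and 351 CPM in Cxcr2-/- replicates 3 and 4, which therefore stood apart. Of the 8 B cell markers 6 were lower in Cxcr2-/- libraries, and their sums were 74.8 to 166 CPM in WT and 31.8 to 74.5 CPM in Cxcr2-/- libraries. Without WT replicate 1, which had the highest sum, 2 of the 8 were called lower. The 10 monocyte and macrophage markers summed to 704 to 819 and 845 to 970 CPM (2 higher, 2 lower, 6 not called), the 8 T and NK cell markers, nearly all of it Cd3d, to 98.1 to 118 and 91.8 to 140 CPM (1 lower, 4 not called), the 6 eosinophil and mast cell markers to 48.8 to 69.2 and 37.7 to 64.2 CPM (2 higher, 2 lower, 2 not tested), and the 9 erythroid and megakaryocyte markers to 8.46 to 12.4 and 5.48 to 16.9 CPM (1 lower, 5 not called). Cd3e, Cd8a and Trac, which define T cells, were each under 1 CPM in every library. The part of these cells and stages in the results on the 8 genes was not tested, and in bulk RNA fewer cells of a type and less RNA per cell cannot be told apart.

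The upstream sequences of 4 genes are shown, those of the inhibitors that moved between the groups and that of Cdk4. The Ink4 inhibitors bind both Cdk4 and Cdk6, and of these only Cdk4 passed the test described below. Each sequence is the 250 bases before a RefSeq transcript start on mouse build GRCm38.p6, printed 5′ to 3′ on the strand of the gene. Capitals mark matches, on either strand, to CCAAT (NF-Y), to TTCCCGC or TTGGCGC or TTCGCGC or TTGCCGC (E2F), to TTTGAA (CHR, the cell cycle homology region), to GTAAACA (FoxO) and to CACGTG (E-box, which reads the same on both strands and was counted 1 time per site).
Cdkn1b, chr6:134920151-134920400, plus strand: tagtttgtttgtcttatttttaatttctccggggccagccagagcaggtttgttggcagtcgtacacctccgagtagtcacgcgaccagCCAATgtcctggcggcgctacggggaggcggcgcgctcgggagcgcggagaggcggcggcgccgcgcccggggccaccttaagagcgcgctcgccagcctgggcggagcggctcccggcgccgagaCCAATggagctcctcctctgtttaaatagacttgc
Cdkn2c, chr4:109666757-109667006, minus strand: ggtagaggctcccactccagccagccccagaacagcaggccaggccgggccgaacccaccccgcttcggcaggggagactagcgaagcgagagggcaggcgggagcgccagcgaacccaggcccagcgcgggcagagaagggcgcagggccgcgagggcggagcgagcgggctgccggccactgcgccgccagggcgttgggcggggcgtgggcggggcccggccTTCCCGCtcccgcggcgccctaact
Cdkn2d, chr9:21291210-21291459, minus strand: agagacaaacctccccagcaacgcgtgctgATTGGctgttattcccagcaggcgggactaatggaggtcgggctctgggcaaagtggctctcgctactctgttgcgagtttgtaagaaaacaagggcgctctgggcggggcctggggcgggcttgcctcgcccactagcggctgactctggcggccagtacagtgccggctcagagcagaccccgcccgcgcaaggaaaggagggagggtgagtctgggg
Cdk4, chr10:127063285-127063534, plus strand: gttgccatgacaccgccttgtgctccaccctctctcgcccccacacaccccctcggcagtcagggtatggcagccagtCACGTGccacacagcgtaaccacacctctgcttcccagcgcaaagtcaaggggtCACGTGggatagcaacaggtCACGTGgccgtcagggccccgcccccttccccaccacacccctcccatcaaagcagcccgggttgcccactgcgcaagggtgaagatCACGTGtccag

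The letters before the RefSeq starts of the 8 genes differed even within a family. Upstream here means before a RefSeq start and not outside the gene. By the gene positions given below, the windows of Cdkn2c, Cdk6, Ccng2 and the second Cdkn1a start lie inside the gene. Most of the Cdkn2d window does too. Cdkn1b held 2 CCAAT boxes and Cdkn2d 1 of them read on the other strand (ATTGG), a box found upstream of 33.8% of the 32851 RefSeq starts of the same window length. Cdkn2c has 2 RefSeq starts, and the one shown, farther upstream, held the E2F match TTCCCGC, while its other start held none of the E2F forms. An E2F form was found upstream of 7.89% of all starts and of none of the other 7 genes. Cdk4 held 4 E-boxes in its 250 bases, which is shared with few others, since 6.02% of starts held at least 1 and 7 starts (0.0213%) held 4 or more. Ccng1 held 3 CCAAT boxes (1 of them on the other strand) and Cdk6 1 E-box, and none of the 8 genes held the CHR letters (16% of starts) or the FoxO letters (3.17% of starts). The GC box GGGCGG, on either strand, was found upstream of Cdkn1b, Cdkn2c, Cdkn2d, Cdk4, Ccng2 and the second Cdkn1a start, and of 32.7% of starts. The p53 decamer motif, present upstream of 7.13% of starts, was matched 2 times before the first start of Cdkn1a, 1 time before Ccng1 and 1 time before Cdkn2d, where it overlaps a GC box. These motifs were picked with the sequences and values known, a match is a run of letters and not a bound site, and no match says only that the letters are not in the window.

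Of the 8 genes, 4 were higher in Cxcr2-/- neutrophils (Cdkn2c, Cdkn2d, Cdk4 and Ccng1), 2 were lower (Cdkn1b and Ccng2), and Cdkn1a and Cdk6 did not pass the test. The quasi-likelihood test of edgeR was run on all 16778 genes, its p-values were adjusted by the Benjamini-Hochberg method, and a gene was called at an adjusted p under 0.05. Across all tested genes 23.7% were called higher, 21% lower and 44.7% in either direction, so much of the transcriptome differed between the groups. The median log2 fold change was 0.13 over the 8 genes and 0.01 over all genes tested. At the 1.5-fold threshold of the study's methods, Cdkn1b, Cdkn2c, Cdkn2d and Cdk4 were called, beside 31.3% of all tested genes. The CPM of the 4 and 4 libraries did not overlap for Cdkn1b, Cdkn2c, Cdkn2d and Ccng2, and did not overlap for 41.6% of all tested genes.

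**Figure D1:**
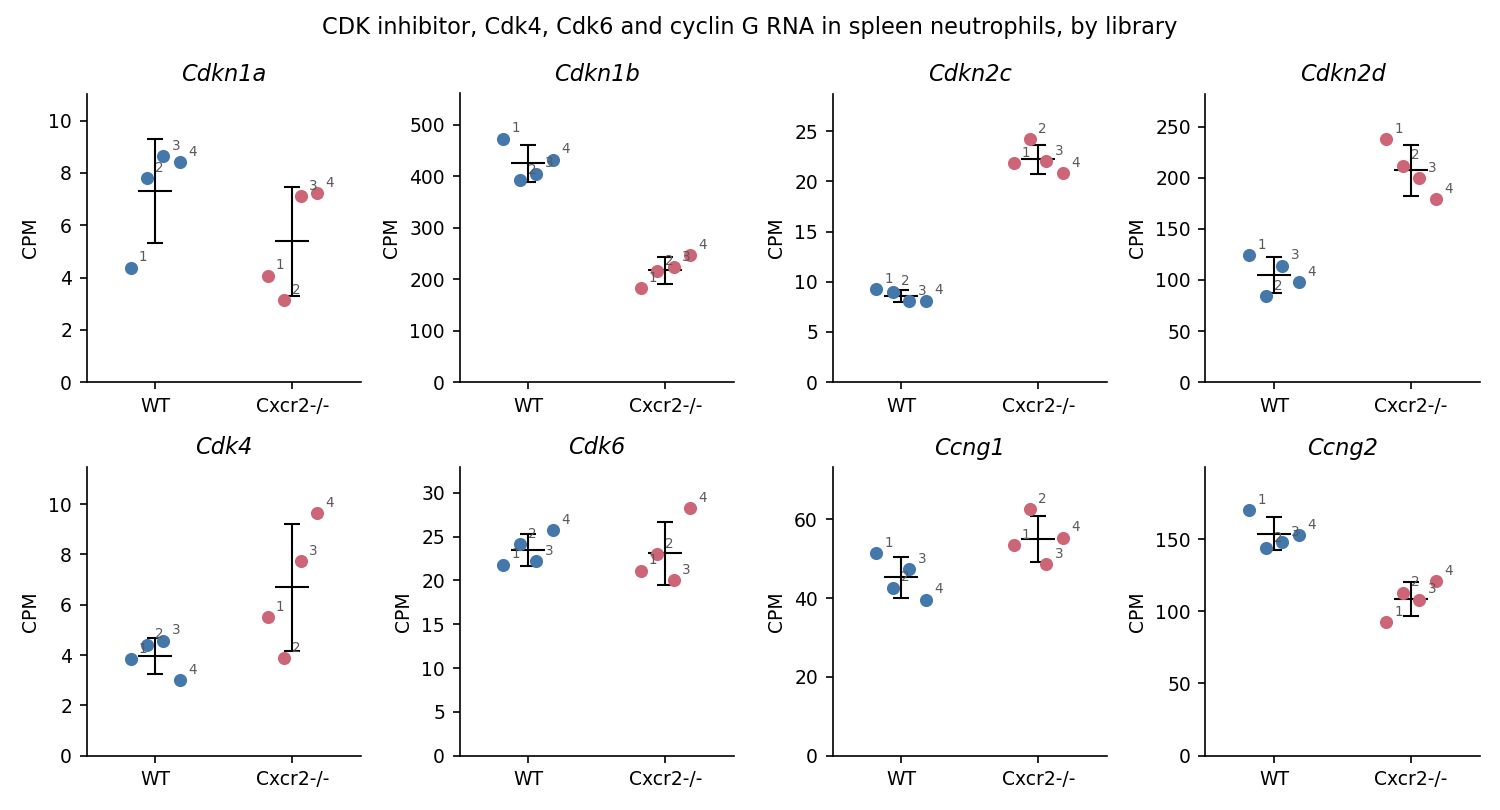
RNA of the 8 genes in each library, in CPM on a linear axis that starts at 0 and has its own scale in each panel. Points are libraries, numbered by replicate, and the horizontal line and bars are the mean and SD (n = 4 per group). The groups stand fully apart for Cdkn1b, Cdkn2c, Cdkn2d and Ccng2 and share part of their range for Cdkn1a, Cdk4, Cdk6 and Ccng1.

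Cdkn1b (ENSMUSG00000003031.15, chromosome 6, 134920401 to 134925513, plus strand) encodes p27, the Cip/Kip inhibitor of cyclin E-Cdk2 whose level rises as many cells leave the cycle. Its RNA stood at 473, 392, 405 and 432 CPM in WT libraries 1 to 4 and at 183, 215, 223 and 247 CPM in Cxcr2-/- libraries 1 to 4. Every WT library was above every Cxcr2-/- library, with a wide gap between the lowest WT and the highest Cxcr2-/- value. The mean fell from 425 ± 35.6 CPM in WT to 217 ± 26.4 CPM in Cxcr2-/- neutrophils (SD, n = 4 each). Cdkn1b fell by 0.97 on the log2 scale (SE 0.11, 95% interval -1.21 to -0.73), a Cxcr2-/- level 0.51 times that of WT, with an edgeR adjusted p of 2.05e-05. These values rest on 7240 to 21374 counts per library, and the fall was called with each of the 8 libraries left out in turn (adjusted p up to 1.31e-04).

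Cdkn1a (ENSMUSG00000023067.15, chromosome 17, 29090976 to 29100727, plus strand) encodes p21, the Cip/Kip inhibitor made when p53 is active. Its RNA was low, at 4.38, 7.8, 8.63 and 8.42 CPM in WT libraries 1 to 4 and 4.07, 3.15, 7.12 and 7.22 CPM in Cxcr2-/- libraries 1 to 4, from 114 to 388 counts. The groups overlapped, because WT replicate 1 lay with the 2 lower Cxcr2-/- libraries. The log2 fold change was -0.44 (SE 0.28, 95% interval -1.04 to 0.17, edgeR adjusted p = 0.232), so a fall of 1.5-fold lay within the interval and the difference was not resolved. Cxcr2-/- replicates 3 and 4, the libraries with the most primary granule RNA, were also the higher ones for Cdkn1a. Without both of them, an alternative added after the values were seen, Cdkn1a was called lower at a log2 fold change of -1.02 (edgeR adjusted p = 0.00627). The part of primary granule cells in this was not tested. AC167363.2, a transcript of unproven status on the opposite strand, shares 273 bases or 7.68% of the exon length of Cdkn1a, and the strand setting of the counting is not given in the sources used here.

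Cdkn2c (ENSMUSG00000028551.15, chromosome 4, 109660876 to 109667189, minus strand) encodes p18, an Ink4 inhibitor of Cdk4 and Cdk6. It stood at 9.26, 9.02, 8.07 and 8.13 CPM in WT libraries 1 to 4 and at 21.8, 24.2, 22 and 20.8 CPM in Cxcr2-/- libraries 1 to 4. The 4 libraries of each group lay close together and the groups were far apart. Cdkn2c rose 2.57-fold, from 8.62 ± 0.611 to 22.2 ± 1.43 CPM (SD, n = 4 each), a log2 fold change of 1.36 (SE 0.11, 95% interval 1.13 to 1.59, edgeR adjusted p = 9.98e-07). The log2 fold change stayed between 1.31 and 1.40 with each library left out in turn. Unlike Cdk4, it was as high in Cxcr2-/- replicates 1 and 2 as in replicates 3 and 4, where primary granule RNA was high.

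Cdkn2d (ENSMUSG00000096472.3, chromosome 9, 21288410 to 21291407, minus strand) encodes p19, the second Ink4 inhibitor of the group, and had much more RNA than Cdkn2c. It stood at 124, 84.4, 114 and 98 CPM in WT libraries 1 to 4 and at 238, 212, 200 and 179 CPM in Cxcr2-/- libraries 1 to 4. All Cxcr2-/- libraries were above all WT libraries, and within the Cxcr2-/- group the highest was replicate 1 and the lowest was replicate 4. The rise was 1.97-fold, from 105 ± 17.5 to 207 ± 24.7 CPM (SD, n = 4 each), a log2 fold change of 0.98 (SE 0.13, 95% interval 0.70 to 1.26, edgeR adjusted p = 6.46e-05). Leaving out each library in turn gave log2 fold changes of 0.86 to 1.07, all of them called.

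Cdkn1b and the 2 Ink4 inhibitors thus moved in opposite directions, and the groups overlapped in the summed RNA of the inhibitors but not in its make-up. Set per length, as CPM per kilobase of exon (RPKM), the 4 inhibitors together summed to 187, 145, 167 and 163 in WT libraries 1 to 4 and to 201, 192, 186 and 178 in Cxcr2-/- libraries 1 to 4. Of that sum Cdkn1b made up 55.4, 59.2, 53.4 and 58.4% in WT libraries 1 to 4 and 20, 24.6, 26.3 and 30.5% in Cxcr2-/- libraries 1 to 4. Cdkn1b was the larger share in each WT library, and Cdkn2d was the larger share in each Cxcr2-/- library. Cdkn2d accounted for 36.9 to 43.4% in WT and 64 to 75.3% in Cxcr2-/- libraries. Cdkn2c and Cdkn1a were minor in both groups, with Cdkn2c at 1.8 to 2.31% in WT and 4.04 to 4.69% in Cxcr2-/- libraries and Cdkn1a at 0.462 to 1.51% over all 8 libraries. The ratio of Cdkn1b to Cdkn2d RNA per length was 1.32, 1.6, 1.23 and 1.52 in WT libraries 1 to 4 and 0.266, 0.351, 0.385 and 0.477 in Cxcr2-/- libraries 1 to 4. Within the Cxcr2-/- group this ratio was highest in replicate 4 and lowest in replicate 1. These shares were built from the same values as the tests above, so no further test was made on them. The exon length of a gene here joins all its annotated exons, so shares and ratios between genes depend on that choice.

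**Figure D2:**
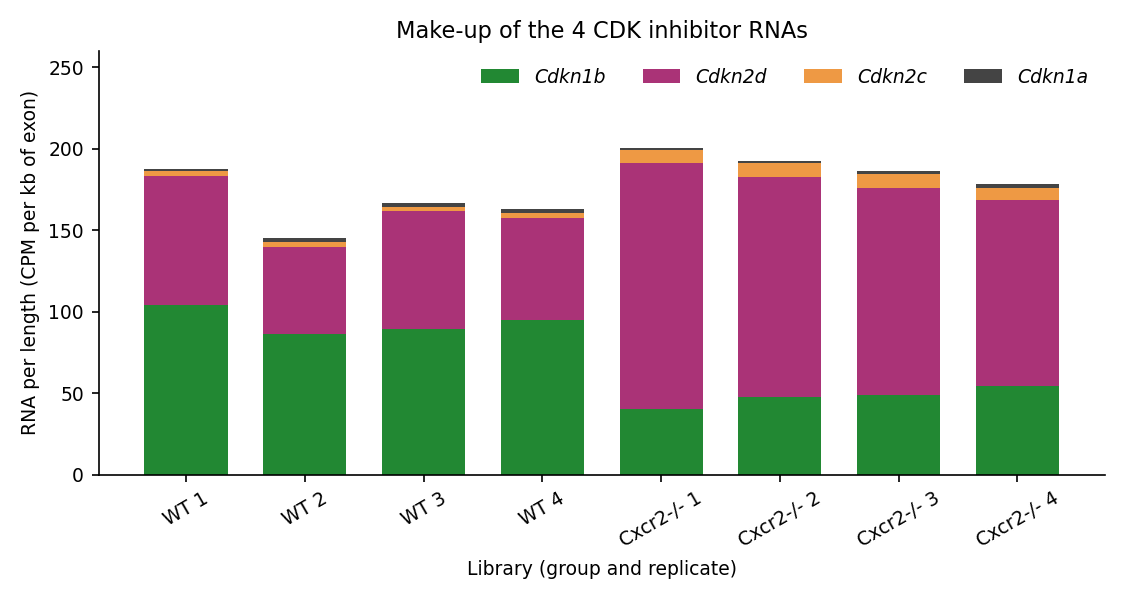
RNA per length of the 4 CDK inhibitors, stacked for each library, in CPM per kilobase of exon on an axis from 0. The bars are single libraries and carry no error. Cdkn1b fills 53.4 to 59.2% of the WT bars and 20 to 30.5% of the Cxcr2-/- bars, Cdkn2d fills most of the rest, and the bar heights range from 145 to 201.

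Cdk4 (ENSMUSG00000006728.13, chromosome 10, 127063534 to 127067920, plus strand) encodes a kinase that works with D cyclins and is held by Ink4 inhibitors. Its RNA was low at 3.85, 4.42, 4.57 and 3.01 CPM in WT libraries 1 to 4 and 5.51, 3.87, 7.75 and 9.65 CPM in Cxcr2-/- libraries 1 to 4, from 104 to 397 counts. Cxcr2-/- replicate 2 lay inside the WT range, and Cxcr2-/- replicates 3 and 4 were the highest. Cdk4 was 1.69-fold higher, at 3.96 ± 0.708 against 6.7 ± 2.53 CPM (SD, n = 4 each), with a log2 fold change of 0.76 (SE 0.26, 95% interval 0.20 to 1.31, edgeR adjusted p = 0.029). The call was lost without Cxcr2-/- replicate 3 (edgeR adjusted p = 0.0736), Cxcr2-/- replicate 4 (0.105), WT replicate 1 (0.0619) or WT replicate 4 (0.0791), and without Cxcr2-/- replicates 3 and 4 together, as added after the values were seen, the log2 fold change was 0.23 (edgeR adjusted p = 0.456). Those 2 libraries held the most primary granule RNA, and its part in the rise of Cdk4 was not tested.

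Cdk4 also shares 641 bases, 19.7% of its exon length, with Tspan31, a tetraspanin gene on the opposite strand that is named here for this overlap alone. Tspan31 stood at 1.22, 1.53, 1.44 and 0.752 CPM in WT libraries 1 to 4 and at 1.97, 2.32, 5.39 and 5.4 CPM in Cxcr2-/- libraries 1 to 4, and was called higher (log2 fold change 1.60, edgeR adjusted p = 0.00289). It too was highest in Cxcr2-/- replicates 3 and 4. The library kit marks strand, but the setting used in counting is not given in the sources used here, so how reads of the shared stretch were assigned is uncertain.

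Cdk6 (ENSMUSG00000040274.12, chromosome 5, 3341485 to 3531008, plus strand), the other kinase of the D cyclins, has the longest exon length of the group, 13989 bases. It stood at 21.8, 24.1, 22.2 and 25.7 CPM in WT libraries 1 to 4 and at 21.1, 23, 20 and 28.2 CPM in Cxcr2-/- libraries 1 to 4. The lowest and the highest of the 8 libraries were both from the Cxcr2-/- group. The log2 fold change was -0.02 (SE 0.12, 95% interval -0.28 to 0.24, edgeR adjusted p = 0.898), an interval that held no change as large as 1.5-fold in either direction. Per length, Cdk6 exceeded Cdk4 in each WT library, at ratios of 1.31, 1.26, 1.13 and 1.98, while the ratios in Cxcr2-/- libraries 1 to 4 were 0.891, 1.38, 0.599 and 0.679. These lengths join all annotated exons, and the order of the 2 kinases can depend on that choice. Both kinases were scarce beside Cdkn1b and Cdkn2d, with a summed RNA per length of 2.74 to 3.08 in WT and 2.83 to 4.99 in Cxcr2-/- libraries. Cdkn1a (means of 2.06 in WT and 1.52 in Cxcr2-/- libraries) and, in WT, Cdkn2c (3.21) were also low.

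Ccng2 (ENSMUSG00000029385.15, chromosome 5, 93267257 to 93276231, plus strand) encodes cyclin G2, an unconventional cyclin of resting cells. It stood at 170, 144, 148 and 153 CPM in WT libraries 1 to 4 and at 92.6, 113, 108 and 121 CPM in Cxcr2-/- libraries 1 to 4. No library of one group reached the range of the other. Ccng2 fell by 0.50 on the log2 scale (SE 0.10, 95% interval -0.72 to -0.28, edgeR adjusted p = 0.00141), from 154 ± 11.3 to 109 ± 11.8 CPM (SD, n = 4 each). That is a level of 0.71 times WT, short of the 1.5-fold threshold, and it was called with each library left out in turn (adjusted p up to 0.00613).

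Ccng1 (ENSMUSG00000020326.8, chromosome 11, 40748552 to 40755311, minus strand) encodes cyclin G1, a product of a classical p53 target gene that recruits the phosphatase PP2A to Mdm2. It stood at 51.5, 42.7, 47.4 and 39.6 CPM in WT libraries 1 to 4 and at 53.4, 62.6, 48.7 and 55.4 CPM in Cxcr2-/- libraries 1 to 4. The groups touched, since Cxcr2-/- replicate 3 lay under WT replicate 1. The rise was small and at the edge of the threshold, 1.21-fold or 0.28 on the log2 scale (SE 0.11, 95% interval 0.05 to 0.51, edgeR adjusted p = 0.0486). DESeq2 did not call it (its adjusted p = 0.107), and the call was lost in 6 of the 8 fits that left out 1 library, namely those without Cxcr2-/- replicate 1 (0.0552), 2 (0.134) or 4 (0.11) and without WT replicate 2 (0.158), 3 (0.0975) or 4 (0.146). The ratio of Ccng2 to Ccng1 RNA per length was 2.12, 2.18, 2.01 and 2.49 in WT libraries 1 to 4 and 1.12, 1.16, 1.43 and 1.4 in Cxcr2-/- libraries 1 to 4, so Ccng2 exceeded Ccng1 in all 8 libraries and by less in the Cxcr2-/- group.

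**Figure D3:**
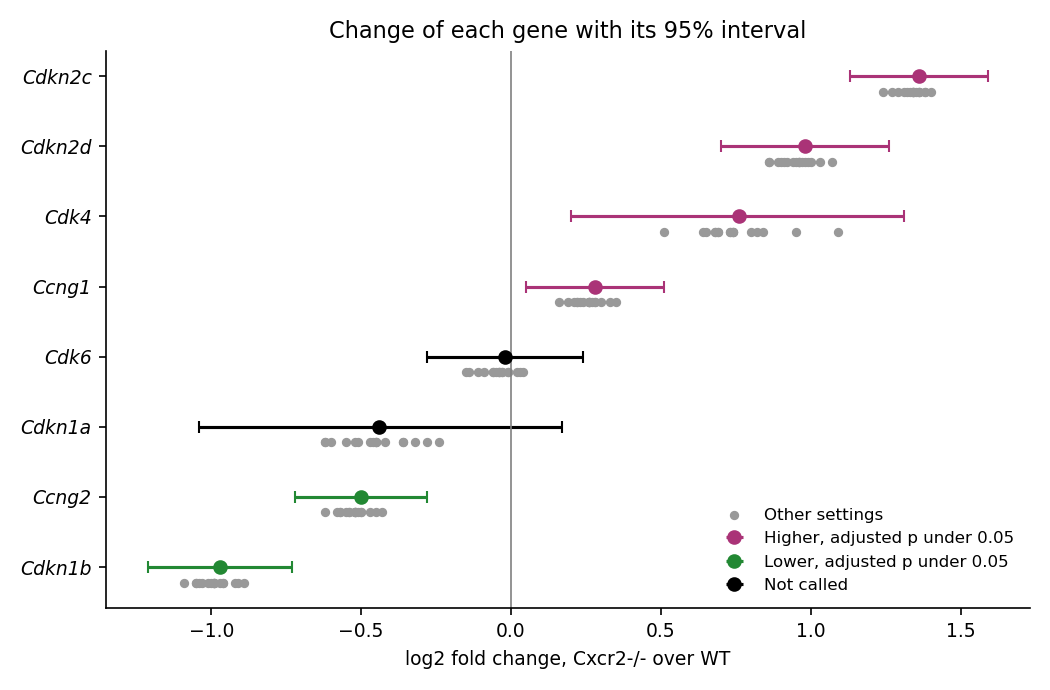
Log2 fold change of the 8 genes, Cxcr2-/- over WT, with the 95% interval from edgeR as the bar and the values under other settings (other scalings and filters, DESeq2, a replicate block, a covariate, single libraries left out) as grey points. Cdkn2c at 1.36 and Cdkn1b at -0.97 lie at the ends, and the intervals of Cdk6 and Cdkn1a cross 0.

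Levels of the 8 genes can be ordered per length, with all annotated exons of a gene joined as its length. In WT neutrophils Cdkn1b had the most RNA, at 93.4 ± 7.83 CPM per kilobase (SD, n = 4), above 97.5% of tested genes, followed by Cdkn2d at 66.8 ± 11.1. Ccng2 (28.2 ± 2.07) and Ccng1 (12.9 ± 1.49) came next. Cdkn2c (3.21 ± 0.227), Cdkn1a (2.06 ± 0.558), Cdk6 (1.67 ± 0.129) and Cdk4 (1.22 ± 0.218) formed the low end, where Cdkn1a and Cdk6 lay within 1 SD of each other. In Cxcr2-/- neutrophils Cdkn2d was first, at 132 ± 15.7 CPM per kilobase (SD, n = 4) and above 98.3% of tested genes, and Cdkn1b second at 47.7 ± 5.8. Ccng2 (19.9 ± 2.16) still came before Ccng1 (15.7 ± 1.64), and Cdkn2c (8.26 ± 0.533) before Cdk4 (2.06 ± 0.779), Cdk6 (1.65 ± 0.261) and Cdkn1a (1.52 ± 0.587), whose spreads overlapped. The kinases thus sat near the middle of all tested genes or under it (38.9 to 49.1% of genes below them), whereas Cdkn1b and Cdkn2d were among the abundant transcripts of both groups.

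Cdkn2c and Cdkn1b were the members with the largest rise and fall, and the genes whose log2 CPM followed them most closely over the 8 libraries were named. Likeness was the Euclidean distance between profiles centred on their own mean, over the 9334 tested genes whose average log2 CPM reached 2. For Cdkn2c the nearest were Pafah2, an acetylhydrolase, at a distance of 0.22, Stradb, a pseudokinase, at 0.233 and Gyg, the glycogen primer glycogenin, at 0.241, where the median gene lay at 1.84. For Cdkn1b they were Ids, a lysosomal sulfatase, at 0.154, Arhgap18 at 0.2 and Ppt1, a lysosomal thioesterase, at 0.204, where the median gene lay at 1.64. Genes this near have fold changes like those of the member by construction.

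The inhibitors of the same families that are not among the 8 were scarce. Cdkn2b (p15), named after its values were seen, stood at 0.321 to 0.764 CPM in WT and 0.0506 to 0.221 CPM in Cxcr2-/- libraries and was called lower (log2 fold change -1.67, SE 0.48, edgeR adjusted p = 0.0131). Cdkn1c (p57) and Cdkn2a (p16 and p19Arf) had too few counts to test and did not exceed 0.553 CPM in any library. Cdkn3, which despite its symbol encodes a phosphatase of Cdk2 made in late cycle, stood at 3.82, 3.7, 5.08 and 3.82 CPM in WT libraries 1 to 4 and at 11, 14.4, 17.9 and 12.3 CPM in Cxcr2-/- libraries 1 to 4. It rose by 1.76 on the log2 scale (SE 0.18, edgeR adjusted p = 7.38e-06), with no overlap between the groups.

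The cyclins that partner with Cdk4, Cdk6 and Cdk2 moved in both directions. Of the 7 G1 cyclins and Cdk2 regulators 4 were higher, 2 were lower and 1 was not called, with a median log2 fold change of 0.85. Ccnd3, the main D cyclin here at 53.9 ± 3.14 CPM per kilobase in WT and 97.5 ± 14 in Cxcr2-/- neutrophils (SD, n = 4 each), rose from 444 to 501 CPM across the WT libraries to 715 to 1015 CPM across the Cxcr2-/- libraries (log2 fold change 0.85, SE 0.12, edgeR adjusted p = 7.89e-05). Ccnd2 fell, from 52.4, 57.8, 41.7 and 47.1 CPM in WT libraries 1 to 4 to 13, 13.3, 14.2 and 19.5 CPM in Cxcr2-/- libraries 1 to 4 (log2 fold change -1.73, SE 0.15, edgeR adjusted p = 1.90e-06). Ccnd1 was called lower (log2 fold change -1.27, SE 0.37, edgeR adjusted p = 0.0139), but its range of 3.04 to 13.7 CPM in WT overlapped that of 2.29 to 3.67 CPM in Cxcr2-/- libraries. Its highest value was in WT replicate 2, where the macrophage markers C1qa (5.79 CPM) and Vcam1 (22.2 CPM) were also highest. Cd4, from the T and NK cell list, was highest there too (14.1 CPM), while Cd3e (0.563 CPM) and Trac (0.482 CPM) were low. The part of cells with these markers in the fall of Ccnd1 was not tested. With a covariate for non-neutrophil markers, or without WT replicates 1 and 2 together, the number of the 7 genes called lower was 1. The D cyclins therefore did not move together: the Cxcr2-/- libraries had more Ccnd3 and less Ccnd2 than the WT libraries, with no overlap for either. Cdk2, the kinase held by p27 and p21, was higher at 102 to 134 CPM against 50.4 to 61.5 CPM in WT (log2 fold change 1.09, SE 0.11, edgeR adjusted p = 6.01e-06), and Cdc25a, the phosphatase that activates it, was higher at 67.5 to 73.3 CPM against 24 to 25.9 CPM (1.52, SE 0.08, edgeR adjusted p = 7.77e-08).

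Downstream of the kinases, the 3 pocket proteins differed in how they moved. Rbl1 (p107), whose gene is itself driven by E2F, stood at 13.5, 15.3, 15.5 and 14.6 CPM in WT libraries 1 to 4 and at 23.8, 31.6, 29.1 and 32.3 CPM in Cxcr2-/- libraries 1 to 4, a log2 fold change of 0.99 (SE 0.11, edgeR adjusted p = 2.28e-05). Rb1, the retinoblastoma protein, was not called, with a log2 fold change of -0.26 (SE 0.10, edgeR adjusted p = 0.0556), and neither was Rbl2 (p130), the pocket protein of resting cells, at -0.15 (SE 0.09, edgeR adjusted p = 0.215). E2f4, the E2F factor that binds Rbl1 and Rbl2, rose by 0.62 (SE 0.10, edgeR adjusted p = 4.40e-04). Over the list of pocket proteins and the MuvB core, the parts of the DREAM complex that holds cell cycle genes silent in G0, 5 of 12 tested genes were higher and 7 were not called, with a median log2 fold change of 0.22. The number lower in that list depended on the setting, at 1 by DESeq2, 2 with RLE normalization and 3 with total-count scaling or upper-quartile normalization. Lin9, a MuvB subunit that also serves activating complexes, and Rbl1 rose most (log2 fold change 1.22, SE 0.19, edgeR adjusted p = 2.52e-04 for Lin9), and Lin54 was not analysed here.

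Transcription factors of the later cycle and genes of S, G2 and M phase were mostly higher in Cxcr2-/- neutrophils. All 5 activating E2F and M phase transcription factors were called higher, with a median log2 fold change of 1.02. Foxm1, which drives the G2 and M phase programme, stood at 10.4 to 12 CPM in WT and 28.4 to 35.6 CPM in Cxcr2-/- libraries (log2 fold change 1.58, SE 0.10, edgeR adjusted p = 3.42e-07), and E2f1 at 4.62 to 6.26 and 11.1 to 13.5 CPM (1.16, SE 0.14, edgeR adjusted p = 3.05e-05). Of 25 S, G2 and M phase genes 23 were higher and 2 were not called, with a median log2 fold change of 1.66. Ccnb1, the mitotic cyclin, rose most, from 5.77, 6.45, 5.53 and 5.15 CPM in WT libraries 1 to 4 to 29.1, 31.5, 30.2 and 28.7 CPM in Cxcr2-/- libraries 1 to 4 (2.38, SE 0.11, edgeR adjusted p = 3.49e-08), followed by the mitotic kinase Plk1 (2.23, SE 0.13, edgeR adjusted p = 1.68e-07). The 2 genes not called, named after their values were seen, were Pcna, the sliding clamp of replication, at -0.43 (edgeR adjusted p = 0.0584, called lower by DESeq2 at an adjusted p of 0.0393), and Mcm4, of the replicative helicase, at 0.18 (edgeR adjusted p = 0.32). Ccnb1 was even across the 4 Cxcr2-/- libraries, as Cdkn2c was, but several S phase genes of the list, named after their values were seen, were highest in replicates 3 and 4, as Cdk4 and the primary granule genes were. The helicase subunit Mcm6 stood at 12.2, 13.5, 23.5 and 30.5 CPM and Mcm5 at 31.6, 32.6, 49.1 and 50.7 CPM in Cxcr2-/- libraries 1 to 4, and the replication licensing factor Cdc6 at 4.8, 4.9, 10.4 and 12 CPM. Without Cxcr2-/- replicates 3 and 4 together 22 of the 25 genes were higher.

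**Figure D4:**
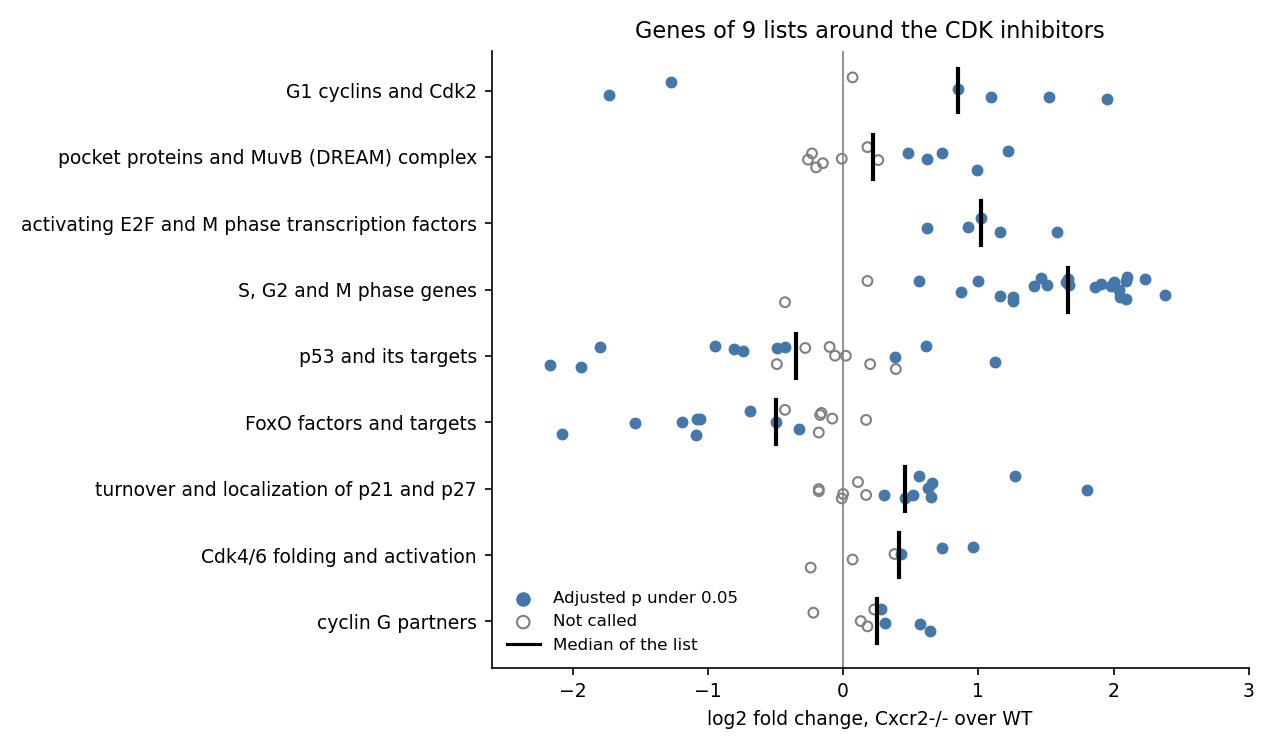
Log2 fold change, Cxcr2-/- over WT, of the tested genes in 9 lists around the CDK inhibitors. Each point is a gene, filled where the adjusted p was under 0.05 and open where not, and the black line is the list's median, which runs from -0.50 for FoxO factors and targets to 1.66 for S, G2 and M phase genes. Vertical scatter within a row only separates the points.

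FoxO factors are known to drive transcription of Cdkn1b and Ccng2, the 2 members that fell, but a part of FoxO in these falls was not tested. Of 15 FoxO factors and targets 9 were lower and 6 were not called, with a median log2 fold change of -0.50. Foxo3 stood at 449, 444, 346 and 451 CPM in WT libraries 1 to 4 and at 341, 301, 273 and 283 CPM in Cxcr2-/- libraries 1 to 4. The groups came close, with WT replicate 3 just over Cxcr2-/- replicate 1, and Foxo3 fell by 0.50 on the log2 scale (SE 0.11, edgeR adjusted p = 0.00354). Foxo1 was low at 3.56 to 7.24 CPM in WT and 2 to 6.25 CPM in Cxcr2-/- libraries and was not called (log2 fold change -0.43, SE 0.33, edgeR adjusted p = 0.316). Among the targets Klf2, a factor of quiescent leukocytes, fell by 1.54 (SE 0.21, edgeR adjusted p = 9.17e-05), and Txnip, an inhibitor of glucose uptake, fell by 1.19 (SE 0.17, edgeR adjusted p = 1.38e-04), neither with overlap between the groups.

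The targets of p53, which include Cdkn1a and Ccng1, were split. Of 18 tested genes of this list 3 were higher, 8 were lower and 7 were not called, with a median log2 fold change of -0.35. Trp53 itself was not called, at 9.43 to 12.2 CPM in WT and 9.05 to 11.9 CPM in Cxcr2-/- libraries (log2 fold change -0.10, SE 0.13, 95% interval -0.38 to 0.19, edgeR adjusted p = 0.589), nor was Mdm2, its ubiquitin ligase and target, at 136 to 165 and 147 to 159 CPM (0.02, SE 0.09, 95% interval -0.17 to 0.21, edgeR adjusted p = 0.878). Pmaip1 (Noxa), a BH3-only death gene, fell from 101 to 121 CPM in WT to 15.1 to 38.5 CPM in Cxcr2-/- libraries (-2.17, SE 0.23, edgeR adjusted p = 1.04e-05), and the stress-induced kinase Plk2 fell from 35 to 36.2 to 7.33 to 11.4 CPM (-1.94, SE 0.15, edgeR adjusted p = 8.51e-07). The number higher fell to 1 with total-count scaling, upper-quartile normalization or no filter, and without Cxcr2-/- replicate 3, Cxcr2-/- replicate 4 or WT replicate 3. Without Cxcr2-/- replicates 3 and 4 together it was also 1, beside 9 genes lower.

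The level of p27 and p21 protein is also set by their degradation, which RNA does not show. Of 15 genes for the turnover and localization of both proteins 9 were higher and 6 were not called, with a median log2 fold change of 0.46. Skp2, the F-box protein that marks p27 for degradation, was not called at 4.88 to 5.77 CPM in WT and 4.73 to 6.42 CPM in Cxcr2-/- libraries (95% interval of the log2 fold change -0.35 to 0.34, edgeR adjusted p = 0.983). Its cofactor Cks1b stood at 3.47, 2.51, 1.76 and 1.76 CPM in WT libraries 1 to 4 and at 7.41, 8.36, 9.07 and 8.56 CPM in Cxcr2-/- libraries 1 to 4, a rise of 1.80 on the log2 scale (SE 0.22, edgeR adjusted p = 3.26e-05). Dtl, the Cul4 receptor that marks p21 in S phase, rose by 1.27 (SE 0.26, edgeR adjusted p = 0.00176) and was highest, at 13.9 and 18.1 CPM, in Cxcr2-/- replicates 3 and 4.

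The partners of the 2 kinases and the 2 G-type cyclins were also counted. Of 6 genes that fold or activate Cdk4 and Cdk6 3 were higher and 3 were not called, with a median log2 fold change of 0.41. Hsp90ab1, an HSP90 chaperone that holds newly made Cdk4 and Cdk6, rose from 152 to 177 CPM in WT to 259 to 288 CPM in Cxcr2-/- libraries (log2 fold change 0.73, SE 0.09, edgeR adjusted p = 2.99e-05). Its kinase-loading partner Cdc37 rose by 0.43 (SE 0.10, edgeR adjusted p = 0.00263). Hsp90aa1, the other HSP90 gene listed, named after its values were seen, stood at -0.24 (edgeR adjusted p = 0.0648). The number of the 6 genes called lower was 1 under several settings, RLE normalization, total-count scaling and upper-quartile normalization among them. Of 8 partners of the G-type cyclins, mostly subunits of PP2A, 4 were higher and 4 were not called, with a median log2 fold change of 0.25. The regulatory subunit Ppp2r5b rose by 0.64 (SE 0.13, edgeR adjusted p = 0.00129) and the catalytic subunit Ppp2cb by 0.57 (SE 0.09, edgeR adjusted p = 3.99e-04). Ppp2ca, the other catalytic subunit, named after its values were seen, had a log2 fold change of -0.22 (edgeR adjusted p = 0.0546) and was called lower by DESeq2 (its adjusted p = 0.0286). The number of partners called higher was 2 of 8 with total-count scaling or upper-quartile normalization and 2 of 8 without WT replicates 1 and 2 together, the libraries chosen after their values were seen as highest in B cell or macrophage markers.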

How the data were processed

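RNA from sorted spleen neutrophils was depleted of ribosomal RNA and sequenced at both ends by the authors. Trimmed reads were mapped to the mm10 build with STAR, and the authors deposited HTSeq gene counts as whole numbers, with no scaling. Tool versions, the gene annotation and the strand setting are not given in the sources used here. Reads assigned to no gene (31.4 to 41.5% in WT, 26.7 to 31.9% in Cxcr2-/- libraries) stayed out of library sizes. Gene identifiers were matched without their version to GENCODE M21 (GRCm38), which holds 52081 of 55414, and positions and exon lengths come from it. Skp1 was read as Skp1a.

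Counts were tested with edgeR 4.0.16 in R 4.3.3 (TMM, filterByExpr, quasi-likelihood test, Benjamini-Hochberg adjustment), with DESeq2 1.42.0 as an alternative. The edgeR steps were also run on simulated counts in which few genes changed. That run does not test a contrast such as this one, where 44.7% of genes were called. Replicates of a group differed beyond counting noise (chi-square of 23.9 to 99 per gene). Labels give no batch. The 8 genes and all lists were chosen with earlier results of these data known. The text names the 8 genes, the 2 largest called changes per list among genes averaging log2 CPM 2 or more, listed direct regulators of the 8 genes, and the 3 nearest profiles.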

Additional observations from a re-analysis of the deposited data

How the results depend on the processing

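The calls of Cdkn1b, Cdkn2c, Cdkn2d and Ccng2 held under all 19 alternatives. Of 152 recomputed values for the 8 genes, 122 kept direction and side of the threshold, and of 646 recomputed list counts 77 moved by more than 1.5 times. The number of the 8 genes called higher was 4 and became 2 under the replicate block, total-count scaling, upper-quartile normalization, without Cxcr2-/- replicates 3 and 4 together and without WT replicates 1 and 2 together, both of these last settings having been chosen after seeing the data. It ranged from 2 to 3 with single libraries left out. Cdk4 lost its call under total-count scaling (adjusted p = 0.0708) and upper-quartile normalization (adjusted p = 0.0621), and without WT replicates 1 and 2 (adjusted p = 0.0978). Ccng1 lost it under DESeq2, every other scaling, both other filters, the covariate for non-neutrophil markers and protein-coding genes only, at adjusted p-values of 0.0806 to 0.24 from edgeR or DESeq2, and without the last-named pairs of libraries at 0.0514 and 0.0762. The log2 fold change of Cdk6 changed sign to 0.02 without Cxcr2-/- replicate 1, 0.04 without Cxcr2-/- replicate 3 and 0.03 without WT replicate 4, over a range of -0.15 to 0.04, and was never called. The cause was not tested.

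The replicate numbers are shared between groups of different mice. The deviations of same-numbered libraries correlated at 0.15, -0.187, 0.245 and -0.308. Libraries with different numbers were not compared, so these values cannot decide whether the numbers pair the samples. With the number as a block, the log2 fold change of Cdk4 was 0.69 (edgeR adjusted p = 0.0683) and Ccng1 0.28 (adjusted p = 0.0715), and the calls of the other 6 genes did not change.

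Scaling moved all genes a little. Upper-quartile normalization shifted the median log2 fold change by -0.119 and gave 3076 genes higher and 4391 lower (41.2% of calls higher), beside 3969 and 3526 (53%) with TMM. The least read genes, Cdk4 and Cdkn1a, rest on 104 to 397 counts per library.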
